A study of Mus musculus with 4 samples.

Results

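Glucose breakdown and the response to low oxygen were followed through 36 genes in forelimbs from mouse embryos, all of which were found among the 17568 genes of the expression table. They were taken by gene name as 15 glycolytic enzyme genes, 7 genes of glucose and lactate transport or of the switches around glycolysis, 13 further targets of hypoxia-inducible factor (HIF), and Hif1a itself. The samples were 2 libraries from forelimbs cultured in medium with cyclopamine and 2 from forelimbs cultured in control medium. Both groups were wild-type Swiss Webster forelimbs at E10.25, with 31 to 34 somites, and every library came from limbs kept in culture. Cyclopamine, which the labels spell cyclopmaine, is a plant alkaloid that inhibits Smoothened and so blocks Hedgehog signalling. The dose, the vehicle, the length and oxygen of the culture and the number of limbs in each library were not stated by the sources read here.

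Glycolysis splits glucose into pyruvate in the cytosol, and lactate dehydrogenase turns pyruvate into lactate when it is not burned in mitochondria. HIF-1 is a pair of proteins, HIF-1 alpha (from Hif1a) and ARNT. When oxygen is plentiful, prolyl hydroxylases (the Egln genes) mark HIF-1 alpha for destruction, and when oxygen is short the pair accumulates and switches on glucose transporters, most glycolytic enzymes, Vegfa and its own hydroxylases. Early embryonic tissues are known for relying heavily on glycolysis. Much of HIF-1 alpha control is on the protein, which RNA levels do not show.

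The DNA core that HIF binds is ACGTG or GCGTG. To show what such a promoter looks like in members of each role, the promoters of 4 genes are printed 5′ to 3′ along the gene. Each is the 250 bases before the most upstream RefSeq start (GRCm38.p6), with either core on either strand in capitals. They belong to Hk2 (chr6:82774455-82774704, minus strand) and Adm (chr7:110627407-110627656, plus strand), which had the lowest fold changes of their groups, and to Pdk1 (chr2:71872974-71873223, plus strand) and P4ha1 (chr10:59323046-59323295, plus strand), which are well known HIF targets.
Hk2: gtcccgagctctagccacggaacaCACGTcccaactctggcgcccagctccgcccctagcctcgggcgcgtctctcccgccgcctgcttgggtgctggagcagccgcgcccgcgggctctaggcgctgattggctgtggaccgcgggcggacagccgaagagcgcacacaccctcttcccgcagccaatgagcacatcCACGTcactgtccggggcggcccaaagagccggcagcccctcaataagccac
Adm: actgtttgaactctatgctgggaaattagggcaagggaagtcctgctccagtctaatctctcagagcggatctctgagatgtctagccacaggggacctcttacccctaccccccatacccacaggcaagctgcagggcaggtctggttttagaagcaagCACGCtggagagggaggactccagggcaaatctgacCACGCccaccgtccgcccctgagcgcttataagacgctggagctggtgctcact
Pdk1: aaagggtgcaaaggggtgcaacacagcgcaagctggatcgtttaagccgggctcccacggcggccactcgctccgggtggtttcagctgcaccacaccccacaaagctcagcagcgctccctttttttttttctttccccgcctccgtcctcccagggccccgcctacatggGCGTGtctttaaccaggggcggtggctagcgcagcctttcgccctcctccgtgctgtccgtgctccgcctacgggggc
P4ha1: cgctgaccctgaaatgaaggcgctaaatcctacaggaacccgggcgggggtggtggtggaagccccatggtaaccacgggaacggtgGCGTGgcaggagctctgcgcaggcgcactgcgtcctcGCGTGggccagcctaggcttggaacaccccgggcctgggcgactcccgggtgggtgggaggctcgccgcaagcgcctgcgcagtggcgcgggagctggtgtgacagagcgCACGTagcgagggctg
RefSeq promoters were matched for 34 of the 36 genes, all but Slc2a3 and Ndrg1. A core stood in the 250 bases of 29 of these 34 promoters, against 56.9% of the 10015 matched promoters of tested genes. By role it stood in 11 of 15 enzyme promoters, 6 of 6 transport and switch promoters and 11 of 12 promoters of further HIF targets. The core ACGTG alone stood in 18 of the 34, against 21.8% of the promoters of tested genes. The palindrome CACGTG was counted on both strands. Such a match is a stretch of letters and not a measured binding site. The 36 genes were chosen in part as HIF targets, so a higher share of cores is no independent result.

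The libraries held 12962633 and 12010965 gene-assigned reads in cyclopamine and 9779589 and 13555492 in control. Values are normalized counts per 1000000 reads (CPM). The Hedgehog target Gli1, which reports whether the pathway was blocked, measured 8.05 and 4.70 CPM in cyclopamine, against 56.2 and 56.7 CPM in control. Of the markers of limb mesenchyme, 8 of 8 were detected, with summed levels of 1340 and 1510 CPM in cyclopamine and 1290 and 1300 CPM in control. On average 5 of the 8 were higher in cyclopamine and 3 were lower. Fgf10 was among the lower, at 46.0 and 39.7 CPM in cyclopamine and 68.0 and 62.2 CPM in control. Its log2 fold change in limma was -0.60 (SE 0.16, adjusted p = 0.255). Of 8 neural markers 7 were found and 6 were tested. All 6 were lower in cyclopamine on average. In limma 4 of the 6 passed an adjusted p under 0.05, where 0.280% of all genes tested were called. Genes entered the test at a mean of 1 CPM or more over the 4 libraries. Ina, 1 of the 4 called, and Sox2 and Pax6 were under 1 CPM in both cyclopamine libraries. These 3 entered only through control, so their lower level was fixed in part by this filter. The 7 found summed to 7.81 and 8.67 CPM in cyclopamine and to 33.8 and 52.4 CPM in control. Ina and Neurog1 were at 0 in both cyclopamine libraries. The part of these cells in the results below was not tested. In whole forelimbs, fewer cells of a type and less RNA per cell cannot be told apart.

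The glycolysis and hypoxia genes made up over 1% of all reads, and none of them passed the test between cyclopamine and control. Together they took 1.43% and 1.35% of reads in cyclopamine, against 1.46% and 1.45% in control. Of the 36 genes, all of which passed the filter on low values, 0 passed the threshold in limma (adjusted p under 0.05, Benjamini-Hochberg over all 13568 genes tested), where 0.280% of all genes tested were called. At an unadjusted p under 0.05 there were 3, where 5.82% of all genes tested reached it. Of these Aldoc was higher in cyclopamine, as were 3.04% of all genes tested, and Hk2 and Adm were lower, as were 2.78%. The quasi-likelihood test of edgeR on reads recovered from the CPM also called 0 of 36, against 0.295% of all genes tested, with 3 at an unadjusted p under 0.05, against 6.02%. DESeq2 called 0 of 36, against 0.383% of all genes tested, with 2 at an unadjusted p under 0.05, against 3.85%. The authors' deposited table lists 0 of the 36 at a false discovery rate under 0.05, against 0.455% of all its genes. The groups did not overlap for 13 of the 36 genes, against 32.6% of all genes tested. Of these 6 were higher in cyclopamine, against 16.8% of all genes tested, and 7 were lower, against 15.8%. These shares are near the background.

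Log2 fold changes, cyclopamine over control on the log2(CPM + 0.5) scale, ran from -0.50 for Adm to 0.48 for Aldoc, with a median of -0.09, against 0.00 over all genes tested. For 32 of the 36 genes the fold change was under 0.25 in either direction, as it was for 72.9% of all genes tested. The 95% interval of the fold change stayed within 1 on the log2 scale for 36 of 36 genes, against 82.9% of all genes tested. The lowest value of the 36 in any library was 7.49 CPM, while genes with a mean of 1 CPM or more were tested. The part of abundance in this share was not tested. The interval stayed within 0.5 for 13 of the 36, a share near the 36.6% of all genes tested. Without control 1 the median of the 36 was 0.03 and without cyclopamine 2 it was 0.05.

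**Figure D1:**
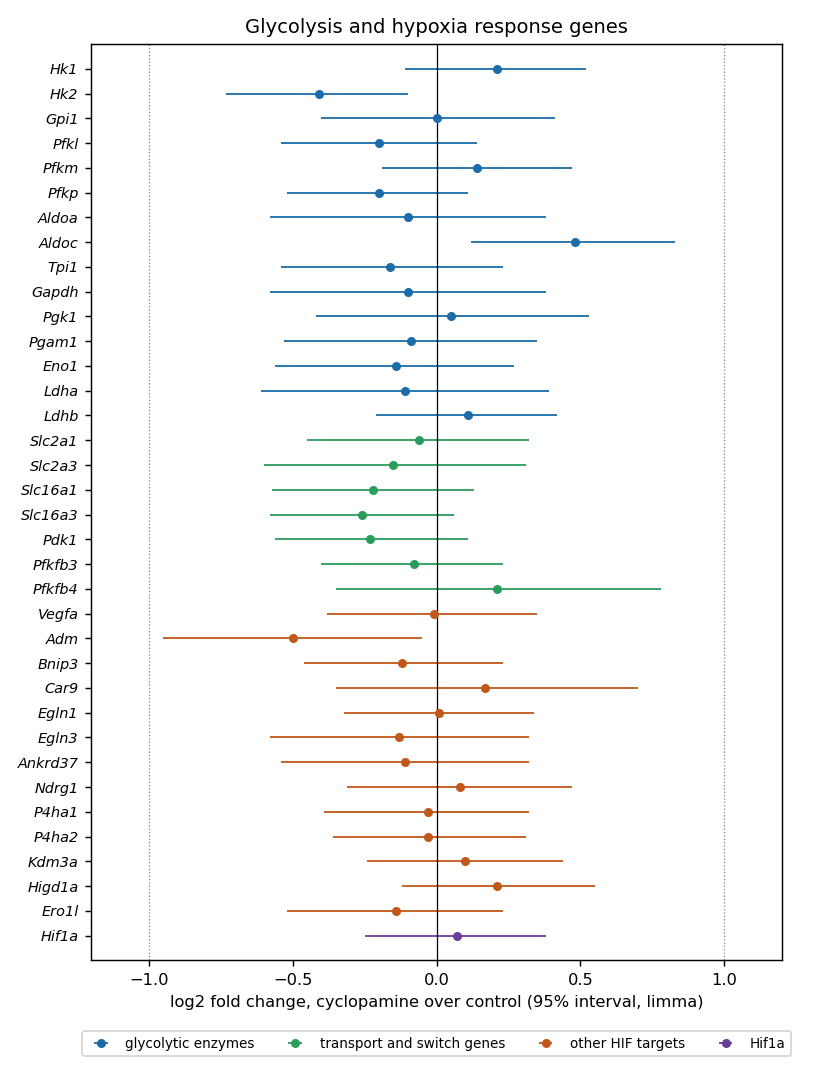
Log2 fold change of the 36 genes, cyclopamine over control, with the 95% interval from limma (n = 2 libraries each), coloured by role, with dotted lines at -1 and 1. All 36 intervals lie between the dotted lines, and those of Hk2, Aldoc and Adm do not reach 0, although none of the 36 passed after adjustment over all genes.

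Glycolysis opens with hexokinase, which traps glucose in the cell as glucose 6-phosphate. Hk2, the inducible hexokinase that Sonic hedgehog raises in mouse cerebellar granule neuron progenitors, measured 186 and 195 CPM in cyclopamine, against 246 and 262 CPM in control. Both cyclopamine libraries lay below both controls, by more than the libraries of either group differed from each other. On the log2 scale Hk2 differed by -0.41 (SE 0.15, adjusted p = 0.612), and it ran from -0.46 to -0.37 when a library was left out. Hk1, the hexokinase of most adult tissues, measured 97.7 and 101 CPM in cyclopamine and 91.8 and 81.0 CPM in control (0.21, SE 0.15, adjusted p = 0.997). Hk2 lies on chromosome 6 at 82725025 to 82774454 in mm10, with no annotated gene sharing its exons, and Hk1 on chromosome 10 at 62268855 to 62379908.

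Per kb of exon, Hk2 made up 73.1% and 73.4% of the summed Hk1 and Hk2 level in cyclopamine and 79.3% and 82.2% in control. These shares did not overlap. With 2 libraries a group an exact permutation test cannot go below p = 0.333, so the shares are given as a description. Phosphofructokinase, which commits sugar to glycolysis, had its liver form Pfkl in the lead, at 67.4% and 67.3% of the family per kb in cyclopamine and 70.1% and 72.3% in control. Such shares depend on the annotated exon length, 6.67 kb for Pfkl, 13.4 kb for Pfkp and 3.34 kb for Pfkm. Pfkl measured 316 and 347 CPM in cyclopamine and 363 and 399 CPM in control, a log2 fold change of -0.20 (SE 0.16). Pfkp, the platelet form, measured 69.6 and 70.2 CPM in cyclopamine and 77.8 and 83.2 CPM in control, also -0.20 (SE 0.15, adjusted p = 0.998). Pfkm, the muscle form, measured 58.9 and 67.0 CPM in cyclopamine and 58.3 and 55.8 CPM in control (0.14, SE 0.15). Cyclopamine and control did not overlap for any of the 3 forms, as for 32.6% of all genes tested, and 0 of the 3 passed the threshold.

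**Figure D2:**
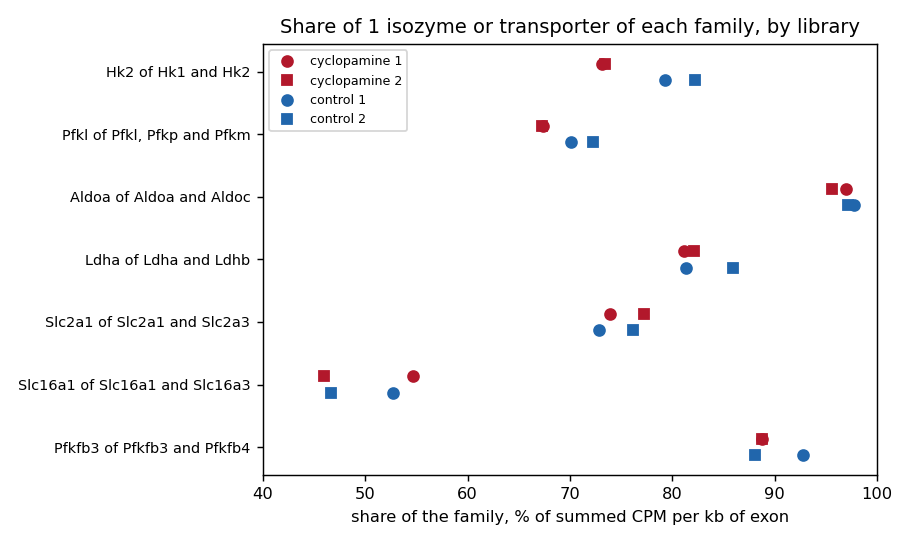
Share of 1 isozyme or transporter in its family (the form with the higher share in every library, except Slc16a1), as a percentage of summed CPM per kb of exon in each library (cyclopamine red, control blue; circle library 1, square library 2). The shares of Hk2, Pfkl and Aldoa are lower in both cyclopamine libraries than in both controls, while those of Slc2a1, Slc16a1, Ldha and Pfkfb3 overlap. The size of a share depends on the annotated exon lengths.

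Aldolase cleaves the doubly phosphorylated sugar. Aldoc, the brain form, had the highest fold change of the 36. It measured 47.3 and 56.7 CPM in cyclopamine, against 38.1 and 36.2 CPM in control, with both cyclopamine libraries above both controls. On the log2 scale Aldoc differed by 0.48 (SE 0.17, adjusted p = 0.578), or 0.35 to 0.60 when a library was left out. The authors' deposited table gives Aldoc 0.487 with a false discovery rate of 0.508, and Hk2 -0.414 with 0.550. Aldoc lies on chromosome 11 at 78322968 to 78327781, and 0 of its windows of 30 bases recur in another annotated gene. It remained the minor form beside Aldoa, the muscle and general form, which made up 97.0% and 95.6% of the pair per kb in cyclopamine and 97.8% and 97.2% in control. Aldoa measured 1380 and 1090 CPM in cyclopamine and 1530 and 1130 CPM in control, overlapping between groups (-0.10, SE 0.23).

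Of the 15 enzymes 4 were higher in cyclopamine without overlap between groups, against 16.8% of all genes tested. Another 4 were lower without overlap, against 15.8%. In the lower stretch these were Tpi1 and Ldhb, and the list was not tested. Per kb of exon the highest mean levels over the 4 libraries were those of Pgk1 (653 CPM per kb), Pgam1 (600), Ldha (542), Aldoa (440) and Gapdh (393), and the lowest of the whole set were Pfkfb4 (2.74) and Car9 (3.60). Gapdh, the dehydrogenase often used as a reference gene, measured 1730 and 1410 CPM in cyclopamine and 1770 and 1580 CPM in control (-0.10, SE 0.23, 95% interval -0.58 to 0.38). Pgk1, which makes the first ATP of the pathway, measured 1530 and 1450 CPM in cyclopamine and 1250 and 1640 CPM in control. Both cyclopamine values fell between the controls. Tpi1, triosephosphate isomerase, did not overlap, at 794 and 731 CPM in cyclopamine and 871 and 829 CPM in control (-0.16, SE 0.18). Gpi1, glucose 6-phosphate isomerase, differed by 0.00 (SE 0.19) on the log2 scale, and Pgam1, phosphoglycerate mutase, by -0.09 (SE 0.21).

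At the end of the pathway Ldha, which makes lactate from pyruvate, measured 1730 and 1700 CPM in cyclopamine, against 1590 and 2160 CPM in control (-0.11, SE 0.24). The controls lay further from each other than from the cyclopamine libraries. Ldhb, the form that favours lactate use, measured 191 and 176 CPM in cyclopamine and 173 and 168 CPM in control (0.11, SE 0.15). Its groups did not overlap. Over the 15 enzymes the median log2 fold change was -0.10, with 6 genes higher and 9 lower and 0 past the threshold. It was 0.05 without cyclopamine 2 and -0.01 without control 1.

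Several enzyme values carry a limit of counting. Glycolytic genes have left many processed copies in the mouse genome, and 10 of the 15 enzyme genes shared at least 10% of their 30-base windows with another gene annotated in GENCODE vM21. The share was 92.2% for Gapdh, 77.5% for Eno1, 68.3% for Pgk1, 42.3% for Ldhb and 42.2% for Pgam1. For Gpi1 it was 38.1%, for Aldoa 35.5%, for Ldha 35.0%, for Tpi1 19.5% and for Pfkp 17.5%. The share of Pfkp lay with Pitrm1, a gene whose exons overlap Pfkp on the opposite strand, and not with a processed copy. Pitrm1 measured 205 and 178 CPM in cyclopamine and 210 and 178 CPM in control. Eno1, the main enolase, was listed at 27.8 and 25.9 CPM in cyclopamine and 35.1 and 25.1 CPM in control, or 5.29 CPM per kb on average. Its close copy Eno1b, listed under the older name Gm5506, held 75.8% of the Eno1 windows and measured 360 and 317 CPM in cyclopamine and 315 and 342 CPM in control. The sources do not say how reads mapping to both were assigned, so the Eno1 level is uncertain. Neither differed between groups beyond the spread of the libraries (Eno1 -0.14, SE 0.19; Eno1b 0.04, SE 0.16).

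Of the 7 transport and switch genes 1 was higher, 6 were lower and 0 passed the threshold, with a median log2 fold change of -0.15. Slc16a3, the lactate exporter MCT4, measured 160 and 167 CPM in cyclopamine, against 180 and 213 CPM in control (-0.26, SE 0.15, adjusted p = 0.962). Pdk1 encodes a kinase that inhibits pyruvate dehydrogenase. It measured 264 and 276 CPM in cyclopamine and 294 and 339 CPM in control (-0.23, SE 0.16, adjusted p = 0.991). For both genes the cyclopamine libraries lay below the controls, as for 15.8% of all genes tested, and the higher control was control 2. With a library left out the differences ran from -0.38 to -0.14 for Slc16a3 and from -0.33 to -0.12 for Pdk1. The median of the 7 was -0.00089 without cyclopamine 2.

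The glucose transporters overlapped. Slc2a1 (GLUT1) measured 492 and 416 CPM in cyclopamine and 542 and 412 CPM in control (-0.06, SE 0.18). Slc2a3 (GLUT3) measured 359 and 254 CPM in cyclopamine and 420 and 266 CPM in control (-0.15, SE 0.21). In both genes library 1 stood well above library 2 in each group. Slc16a1, the lactate carrier MCT1, measured 161 and 118 CPM in cyclopamine and 167 and 155 CPM in control (-0.22, SE 0.17). Its difference was -0.00089 without cyclopamine 2 and -0.44 without cyclopamine 1. The bifunctional enzymes that set the level of the activator of phosphofructokinase had log2 fold changes of -0.08 for Pfkfb3 and 0.21 for Pfkfb4. Pfkfb4 measured 13.4 and 14.7 CPM in cyclopamine and 8.87 and 16.3 CPM in control, so that the controls spanned the cyclopamine values.

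Hif1a RNA measured 202 and 210 CPM in cyclopamine and 191 and 202 CPM in control, a log2 fold change of 0.07 (SE 0.15, 95% interval -0.25 to 0.38). Among the 13 further HIF targets 5 were higher, 8 were lower and 0 passed the threshold. Their median log2 fold change was -0.03, and it took either sign when a control was left out, at 0.13 without control 1 and -0.20 without control 2. Vegfa, the growth factor that draws vessels into poorly oxygenated tissue, measured 325 and 308 CPM in cyclopamine, against 372 and 275 CPM in control (-0.01, SE 0.17). The cyclopamine values fell between the controls.

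Adm, which encodes the vasodilator peptide adrenomedullin, had the lowest fold change of the 36. It measured 17.8 and 14.9 CPM in cyclopamine, against 27.3 and 19.8 CPM in control. The groups did not overlap, but control 1 exceeded control 2 by more than control 2 exceeded cyclopamine 1. On the log2 scale Adm differed by -0.50 (SE 0.21, adjusted p = 0.793), and it ran from -0.73 to -0.27 when a library was left out. Adm lies on chromosome 7 at 110627661 to 110629820.

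Among those that slow or signal the response, Egln1, the main oxygen-sensing hydroxylase, differed by 0.01 (SE 0.16) on the log2 scale, and Egln3, a hydroxylase strongly induced by HIF, measured 68.7 and 52.7 CPM in cyclopamine and 85.2 and 50.8 CPM in control (-0.13, SE 0.21). Bnip3, a mitophagy receptor, measured 381 and 316 CPM in cyclopamine and 377 and 375 CPM in control (-0.12, SE 0.16), with 75.4% of its windows shared with other annotated genes. Higd1a, a small protein of the mitochondrial inner membrane, measured 102 and 82.6 CPM in cyclopamine and 74.7 and 83.8 CPM in control (0.21, SE 0.16, and 0.06 to 0.37 with a library left out). The oxidase gene Ero1l, which helps form disulfides in the endoplasmic reticulum, measured 427 and 323 CPM in cyclopamine and 438 and 383 CPM in control (-0.14, SE 0.18).

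Beside Adm, the groups did not overlap for 2 of the 13 targets, which makes 3 of 13 against 32.6% of all genes tested. Kdm3a, a histone H3 lysine demethylase, measured 411 and 434 CPM in cyclopamine and 400 and 390 CPM in control (0.10, SE 0.16). Car9, the membrane carbonic anhydrase often used as a mark of hypoxic cells, was low throughout, at 9.15 and 8.51 CPM in cyclopamine and 8.05 and 7.49 CPM in control (0.17, SE 0.25). The lowest of the 36 genes by reads was Car9 with 78 in control 1, well above the floor of 3 reads. The collagen prolyl hydroxylases P4ha1 and P4ha2 had log2 fold changes of -0.03 each, the HIF target Ankrd37 of -0.11, and Ndrg1, a stress-induced gene, of 0.08.

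**Figure D3:**
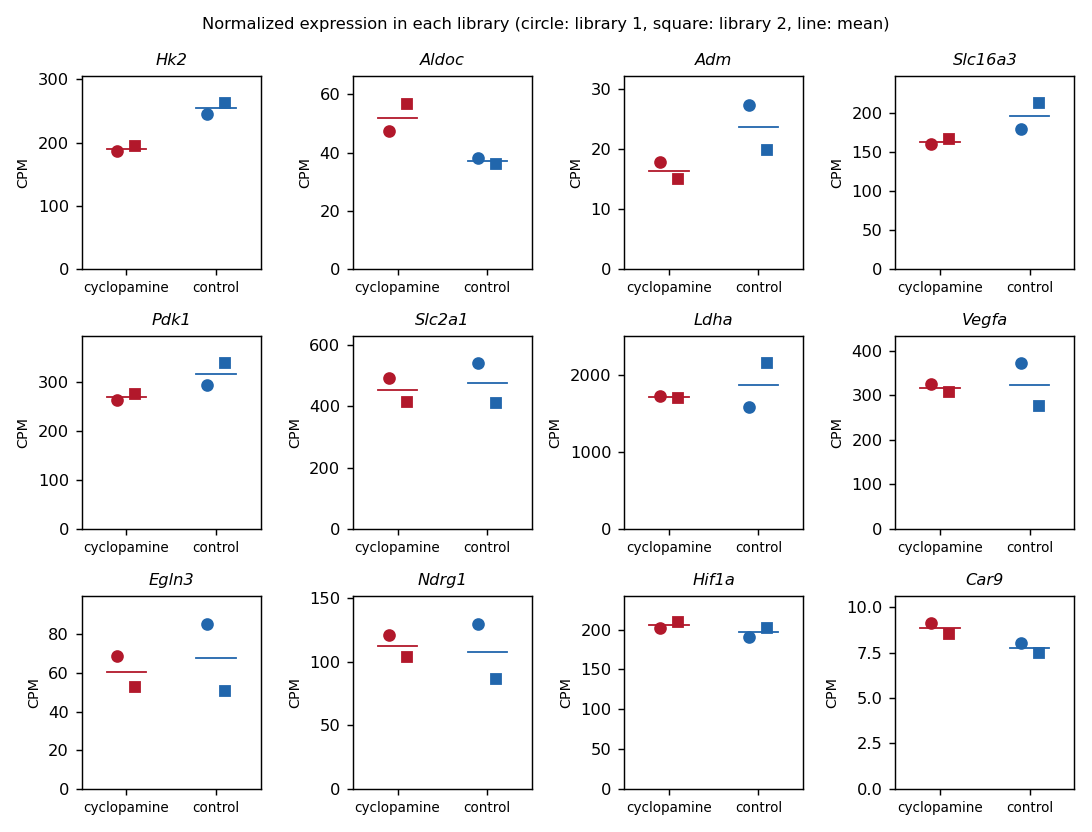
CPM in each library for 12 of the 36 genes (cyclopamine left in red, control right in blue; circle library 1, square library 2; line, mean of 2; axes start at 0). Hk2 and Adm are lower and Aldoc is higher in both cyclopamine libraries, while for Slc2a1, Vegfa, Egln3 and Ndrg1 library 1 lies above library 2 in each group and the groups overlap.

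The clearest order in the HIF targets ran between libraries of the same condition. In 10 of the 13 further HIF targets library 1 exceeded library 2 in both cyclopamine and control, an order held by 30.7% of all genes tested. The opposite order was held by 1 of the 13, P4ha2, against 30.6% of all genes tested. The order was held by 6 of 15 enzymes and 3 of 7 transport and switch genes. Of 45 other genes of the HIF pathway and its targets that were tested, 24 held it. The median of library 1 minus library 2 over the 13 targets was 0.21 in cyclopamine and 0.19 in control on the log2 scale, against 0.00 and -0.01 over all genes tested. For 9 of the 13 the mean difference between the libraries was larger than the fold change between conditions, as it was for 55.8% of all genes tested. The labels do not say whether libraries with the same number share a culture or a day.

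Egln3 shows the order most plainly among the targets, with library 1 above library 2 by 0.38 in cyclopamine and 0.74 in control on the log2 scale. Ndrg1 measured 121 and 104 CPM in cyclopamine and 130 and 86.2 CPM in control, differences of 0.21 and 0.59. Among the transporters Slc2a3 differed by 0.50 and 0.66. Hif1a itself went slightly the other way, by -0.06 and -0.08. Egln3, Ndrg1 and Slc2a3 were chosen here after their values were seen.

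Among markers of other cells, the erythroid and ectoderm lists had most members in this order, which 30.7% of all genes tested held. The 8 detected erythroid markers of 9 summed to 2160 and 1270 CPM in cyclopamine and 1330 and 614 CPM in control, and 6 of the 8 held the order. All 8 were also higher in cyclopamine than in control on average, with a median log2 fold change of 0.76 and 0 past the threshold. In limma 5 of the 8 reached an unadjusted p under 0.05, against 5.82% of all genes tested. The 8 limb ectoderm markers summed to 375 and 284 CPM in cyclopamine and 374 and 293 CPM in control, and 6 of 8 held it. These near-equal sums hide Fgf8, the 1 ectoderm marker past the threshold in limma. Fgf8 was lower in cyclopamine, with a log2 fold change of -1.64 (SE 0.20, adjusted p = 0.000973). On average 6 of the 8 ectoderm markers were higher in cyclopamine and 2 were lower, Fgf8 among them. The 8 endothelial markers summed to 467 and 518 CPM in cyclopamine and 437 and 429 CPM in control, with 3 of 8 in the order. It was held by 3 of 8 mesenchyme, 1 of 6 macrophage, 0 of 5 muscle and 0 of 6 neural markers. Macrophage markers summed to 13.3 and 21.3 CPM in cyclopamine and 15.6 and 15.1 CPM in control. Muscle markers summed to 70.2 and 80 CPM in cyclopamine and 45.6 and 80.3 CPM in control. Among the erythroid, ectoderm and endothelial lists 0 markers were at 0 in any library. The part of these cells in the levels of the HIF targets was not tested.

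**Figure D4:**
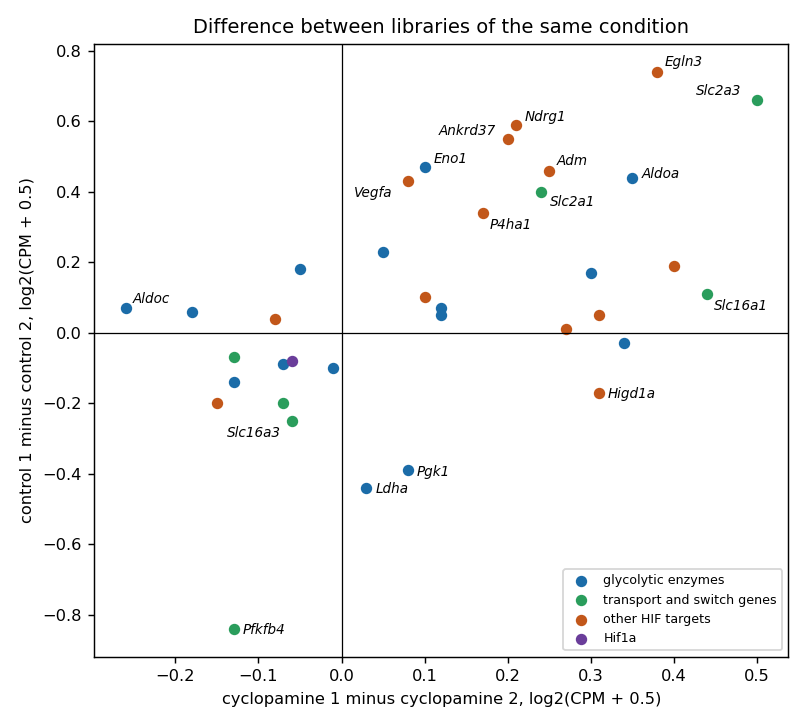
Difference between library 1 and library 2, log2(CPM + 0.5), within cyclopamine (horizontal) and within control (vertical) for the 36 genes, coloured by role. Of the 13 further HIF targets 10 lie in the upper right, with Egln3 at 0.38 and 0.74, while Pfkfb4 lies lowest at -0.13 and -0.84.

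Other genes of both pathways that were not among the 36 were read from lists of named genes. Of 46 further genes of glycolysis and neighbouring steps 43 were found and 36 tested, and 0 passed the threshold in limma. At an unadjusted p under 0.05 there were 5, against 5.82% of all genes tested, and the median log2 fold change was 0.06. Pkm, pyruvate kinase, the step that ends glycolysis, measured 2810 and 2670 CPM in cyclopamine and 3050 and 3250 CPM in control (-0.20, SE 0.26). The smallest p-values were those of Mpc2, a subunit of the mitochondrial pyruvate carrier (0.73, SE 0.23, adjusted p = 0.440), Eno3, the muscle enolase (0.46, SE 0.17, adjusted p = 0.654), and Gpd1, the cytosolic glycerol 3-phosphate dehydrogenase (1.03, SE 0.44, adjusted p = 0.801). Mpc2 measured 21.0 and 15.2 CPM in cyclopamine and 9.60 and 11.6 CPM in control. Gpd1 was low, at 1.97 and 2.51 CPM in cyclopamine and 0.516 and 1.25 CPM in control, or 5 reads in control 1.

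Of 47 further genes of the HIF pathway and its targets 46 were found and 45 tested. In limma 0 rose and 1 of the 45 fell, where 0.280% of all genes tested were called, and 4 reached an unadjusted p under 0.05, against 5.82%. The gene that fell was Car12, a membrane carbonic anhydrase that regulates pH outside the cell. Car12 measured 53.1 and 41.8 CPM in cyclopamine, against 90.3 and 80.4 CPM in control. Both cyclopamine libraries were far below both controls, a difference of -0.85 on the log2 scale (SE 0.16, adjusted p = 0.0434). Its call held without cyclopamine 1 (adjusted p = 0.000376) and ended without control 1 (adjusted p = 0.116), without control 2 (adjusted p = 0.0563) and without cyclopamine 2 (adjusted p = 0.141). The authors' deposited table gives it -0.846 with a false discovery rate of 0.00252. Car12 lies on chromosome 9 at 66713686 to 66766845.

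Of the 45 genes 22 were higher and 23 lower. Next after Car12 came Trib3, a pseudokinase of the amino acid stress response, at 17.2 and 13.9 CPM in cyclopamine and 9.80 and 7.93 CPM in control (0.77, SE 0.23, adjusted p = 0.386). Angptl4, a secreted inhibitor of lipoprotein lipase, measured 13.1 and 12.5 CPM in cyclopamine and 8.46 and 7.86 CPM in control (0.62, SE 0.23, adjusted p = 0.654). The partners and brakes of the pathway did not pass the test, with Arnt at 0.13 (SE 0.15), Vhl, which targets HIF-1 alpha for destruction, at 0.22 (SE 0.17), and Hif3a at 0.09 (SE 0.20). Egln2 was at 0.22 (SE 0.17). In the other direction went Hif1an, at -0.27 (SE 0.15, adjusted p = 0.946), and Arnt2, at -0.06 (SE 0.15).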

How the data were processed

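RNA was extracted with TRIzol and sequenced on SOLiD, a ligation-based platform, per the labels' protocols. Per the submitters' processing notes, the tools included edgeR 3.4.2, HTSeq 0.5.4p5, TopHat2 2.0.9, SAMtools and Bowtie, and the build was mm10. Judged from its values, the deposited signal per gene is in counts per 1000000 of an effective library size, and 100% of values in each library were whole reads within 0.01 of a read, so read counts were recovered. A read is worth 0.0735 to 0.103 CPM, and the floor is 3 reads. The deposited table also holds the authors' own p-value per gene, its false discovery rate, and log2 values for the fold change and mean level.

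Genes averaging 1 CPM or more entered limma 3.58.1 (R 4.3.3), run two-sided with a trend on intensity after adding 0.5 CPM and taking log2. The code was first tested on simulated data. The pseudocount understates changes of low genes. P-values rest on 2 libraries a group, described by the submitters as biological replicates. Alternatives were edgeR 4.0.16 and DESeq2 1.42.0 on recovered counts, other scalings, filters and pseudocounts, and leaving out each library.

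Members and lists were chosen with earlier results of these data known, so lists were not tested. Full values follow a rule: up to 6 genes of smallest p in glycolysis and in HIF targets, and Hif1a, Slc2a1, Vegfa, Pdk1, Ldha and Gapdh. Others were chosen after their values were seen. Exon lengths (all annotated exons merged), coordinates, the overlap of exons and shared windows (in the transcript with the longest coding region) come from GENCODE vM21 (GRCm38, the same assembly as mm10). Exons of 14 of the 36 genes overlap a gene on the opposite strand, and the sources do not state how strand was handled.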

Additional observations from a re-analysis of the deposited data

How the results depend on the processing

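The count of all genes past the threshold moved with the model: against 38 it was 2 without a filter, 0 in limma with no trend on intensity (837 by unadjusted p under 0.05; edgeR 40, DESeq2 52) and 20 with scaling by total reads; the cause was not tested. It ran from 34 to 117 when a library was left out. Among the 36 glycolysis and hypoxia genes 0 passed under these and under the pseudocounts, the stricter filter, the size factors of DESeq2, edgeR, DESeq2 and each omitted library. The exception was the replicate block, a limma fit with the replicate number as a term, which called 351 genes (2.59% of those tested) and 2 of the 36, Hk2 (adjusted p = 0.0164) and Aldoc (adjusted p = 0.0419). The labels tie the replicate number to no litter, culture or day. The deviations of cyclopamine 1 and control 1 from their group means had a Pearson's r of 0.274 across genes, which are not independent replicates. Car12 lost its call without a filter (adjusted p = 0.293), without a trend (adjusted p = 0.458) and with scaling by total reads (adjusted p = 0.0723); the cause was not tested. Gpi1 had log2 fold changes of -0.00066 with the size factors of DESeq2, -0.0058 in edgeR and -0.0047 in DESeq2.

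With a library left out, medians of log2 fold changes ran from -0.141 to 0.0497 for the 36 genes, -0.135 to 0.0464 for enzymes, -0.19 to -0.00089 for transport and switch genes and -0.20 to 0.13 for further HIF targets. These genes took either sign over the 4 fits, from lowest to highest: Gpi1 -0.11 to 0.12, Aldoa -0.32 to 0.12, Gapdh -0.25 to 0.0533, Pgk1 -0.14 to 0.25, Pgam1 -0.26 to 0.0804, Eno1 -0.38 to 0.0931, Ldha -0.33 to 0.11, Slc2a1 -0.26 to 0.14, Slc2a3 -0.48 to 0.18, Pfkfb4 -0.21 to 0.64, Vegfa -0.23 to 0.20, Bnip3 -0.25 to 0.0168, Egln1 -0.15 to 0.17, Egln3 -0.50 to 0.24, Ankrd37 -0.39 to 0.17, Ndrg1 -0.21 to 0.38, P4ha1 -0.20 to 0.14, P4ha2 -0.13 to 0.0756 and Ero1l -0.34 to 0.0606. The other 17 kept their sign, and of those whose range is not given with their values it ran 0.12 to 0.30 for Hk1, -0.27 to -0.13 for Pfkl, 0.05 to 0.23 for Pfkm, -0.25 to -0.15 for Pfkp, -0.22 to -0.10 for Tpi1, 0.05 to 0.17 for Ldhb, -0.15 to -0.02 for Pfkfb3, 0.12 to 0.22 for Car9, 0.06 to 0.13 for Kdm3a and 0.03 to 0.11 for Hif1a. Outside the 36, Hif3a ran from -0.25 to 0.43, Arnt 0.02 to 0.25, Vhl 0.05 to 0.40 and Gpd1 0.64 to 1.43. With 78 reads or more for each of the 36 genes in every library, the precision rests on 2 libraries a group.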
